A study of Rattus norvegicus with 10 samples.

Results

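The NRF2 and antioxidant defence genes described here are 9 genes of the 32623 listed for rat gastric mucosa. They were taken by gene identifier and by chromosome: Hmox1, Nqo1, Gclc, Gclm, Slc7a11, Nfe2l2, Keap1, Cat and Sod1. All 9 were found on the chromosome given for them and all 9 passed the filter on low counts, among 16346 genes that did. The 10 libraries, 2 for each of 5 groups, were made from stomach lining of Sprague Dawley rats, with the cell type given as epithelial cells. Rats received a non-steroidal anti-inflammatory drug (NSAID, an inhibitor of cyclooxygenases) by mouth, and mucosa was collected after 4 h. The doses were 48 mg/kg for indomethacin, 75 mg/kg for diclofenac and 400 mg/kg for aspirin. In the last group honokiol, a plant biphenol, was injected intraperitoneally at 40 mg/kg, and indomethacin at 48 mg/kg followed 30 min later. The time label of this honokiol group is 0.5 h and was read as the lead of honokiol, so that its sampling at 4 h rests on the general protocol. Controls carry no treatment label, and neither vehicle nor honokiol alone was analysed here.

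NRF2, the product of Nfe2l2, is a transcription factor that the adaptor KEAP1 marks for breakdown by the proteasome. Oxidants and electrophiles modify KEAP1, NRF2 then accumulates, pairs with small MAF proteins and binds antioxidant response elements near its target genes. Hmox1, Nqo1, Gclc, Gclm and Slc7a11 are well known targets, whereas Cat and Sod1 encode enzymes that remove hydrogen peroxide and superoxide and are expressed in most cells. The gastric mucosa meets acid, food oxidants and, during NSAID injury, reactive oxygen species. NRF2 is regulated largely at the level of the protein, which RNA counts do not measure.

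Library totals ran from 23892226 to 44977459 counts, and the 9 genes held between 35 counts (Hmox1, control replicate 2) and 4048 counts (Nfe2l2, control replicate 1). Levels are given as TMM-scaled CPM, counts scaled for the size and composition of each library. A gene was called when the quasi-likelihood F test of edgeR gave a Benjamini-Hochberg adjusted p under 0.05 over all tested genes, and "rose" and "fell" are used of called genes only. The 2 control libraries differed in Y chromosome counts (3582 against 1), as did the 2 indomethacin libraries (4438 against 2). In each of these groups they were thus not from the same single animal. In the other groups the 2 libraries may or may not be separate animals. A p-value here weighs a difference only against the spread of these libraries. Reads on the Y chromosome were uneven: control replicate 1, indomethacin replicate 1 and both honokiol libraries held 2733 to 4438 counts on 7 Y features, and the other 6 libraries held 0 to 47. All aspirin and diclofenac libraries were thus without Y reads while 1 of the 2 controls had them. Mitochondrial features took 35.09% and 36.17% of counts in control, 32.41% and 21.7% with indomethacin, 31.51% and 35.4% with honokiol plus indomethacin, 23.78% and 22.76% with aspirin and 21.4% and 21.12% with diclofenac. In whole mucosa, fewer cells of a type and less RNA per cell cannot be told apart.

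The promoter sequences of 4 genes are shown, because 3 of them (Slc7a11, Cat and Sod1) were called with diclofenac and the fourth (Gclm) holds an antioxidant response element. RefSeq windows on the GRCr8 build, 250 bases before to 50 bases after a gene start, were found for 8 of the 9 genes. Each line gives the 250 bases before the start, 5′ to 3′ on the strand of the gene. They are chr2:136668265-136668514 (minus strand) for Slc7a11, chr11:42942573-42942822 (plus strand) for Sod1, chr3:110329527-110329776 (minus strand) for Cat and chr2:213031885-213032134 (plus strand) for Gclm. Capitals mark matches on either strand to the antioxidant response element core TGACNNNGC, to the amino acid response element TGATGNAA, through which ATF4 acts, and to the CCAAT box, which reads ATTGG on the other strand.
Slc7a11: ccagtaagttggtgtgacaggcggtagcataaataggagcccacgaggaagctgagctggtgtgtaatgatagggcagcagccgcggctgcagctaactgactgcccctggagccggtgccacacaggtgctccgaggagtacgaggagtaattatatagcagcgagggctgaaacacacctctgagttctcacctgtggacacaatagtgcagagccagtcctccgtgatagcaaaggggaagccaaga
Sod1: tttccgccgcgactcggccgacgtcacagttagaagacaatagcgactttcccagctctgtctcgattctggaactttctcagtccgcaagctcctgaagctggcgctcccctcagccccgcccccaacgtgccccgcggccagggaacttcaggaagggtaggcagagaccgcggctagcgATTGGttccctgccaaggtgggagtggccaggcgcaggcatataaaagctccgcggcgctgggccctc
Cat: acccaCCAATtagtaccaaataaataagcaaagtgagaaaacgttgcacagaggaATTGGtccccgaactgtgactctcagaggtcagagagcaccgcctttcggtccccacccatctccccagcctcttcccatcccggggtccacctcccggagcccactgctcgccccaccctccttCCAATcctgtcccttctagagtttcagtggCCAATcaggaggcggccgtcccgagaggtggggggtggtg
Gclm: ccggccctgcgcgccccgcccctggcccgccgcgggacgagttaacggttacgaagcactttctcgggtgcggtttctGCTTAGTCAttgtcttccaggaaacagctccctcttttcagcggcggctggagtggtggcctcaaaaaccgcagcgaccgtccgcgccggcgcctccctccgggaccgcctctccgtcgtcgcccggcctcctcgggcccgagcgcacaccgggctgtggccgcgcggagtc

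The antioxidant response element core was present in 2 of the 8 windows and in 12.1% of all 33469 windows. In Gclm it lay on the other strand from -172 to -164, counted from the gene start, and read TGACTAAGC. In Nfe2l2 it lay after the start, from 39 to 47, and read TGACGCCGC. The amino acid response element was in 0 of the 8 windows and in 3.98% of all. The CCAAT box, chosen together with the GC box GGGCGG after the sequences were seen, was in 3 of the 8 (Nqo1, Cat and Sod1) and in 37.5% of all windows. Cat held 5 copies, 4 of them before the start. The GC box was in 6 of the 8, all but Slc7a11 and Cat, and in 33.1% of all windows. The windows had 53.3% to 76.7% G and C against a median of 51.7% over all windows, and Gclc and Gclm had most CG dinucleotides, 52 and 42 against a median of 7. A match describes letters in this window, and NRF2 is known to act on some of these genes from more distant elements. Gene positions given below are those of the deposited files, whose build is unnamed, and are not GRCr8 positions.

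The members did not move as 1 group. With diclofenac, 3 of the 9 genes were called, where 7.87% of all tested genes were: Slc7a11, which imports cystine, rose, and Cat and Sod1 fell. The 1 gene that rose compares with 4.76% of all tested genes called higher, and the 2 that fell with 3.11% called lower. With aspirin 2 of the 9 fell, Nfe2l2 and Sod1, where 17.8% of all tested genes were called and 8.26% were called lower. With indomethacin 0 of the 9 were called by edgeR (0.777% of all tested genes), although 2 had an unadjusted p under 0.05 and DESeq2 called 1, Hmox1. Between honokiol plus indomethacin and control, edgeR called 0 of the 9 and 0% of all tested genes; 1 of the 9 had p under 0.05 before adjustment and DESeq2 called 0. Between honokiol plus indomethacin and indomethacin, edgeR called 0 of the 9 and 0.343% of all tested genes; 3 of the 9 had p under 0.05 before adjustment and DESeq2 called 1 (Slc7a11). Median log2 fold changes over the 9 genes were 0.06 with indomethacin, -0.10 with diclofenac, -0.30 with aspirin and 0.01 with honokiol plus indomethacin, against medians of -0.02, -0.01, 0.00 and -0.01 over all tested genes. These 4 comparisons share the control libraries.

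**Figure D1:**
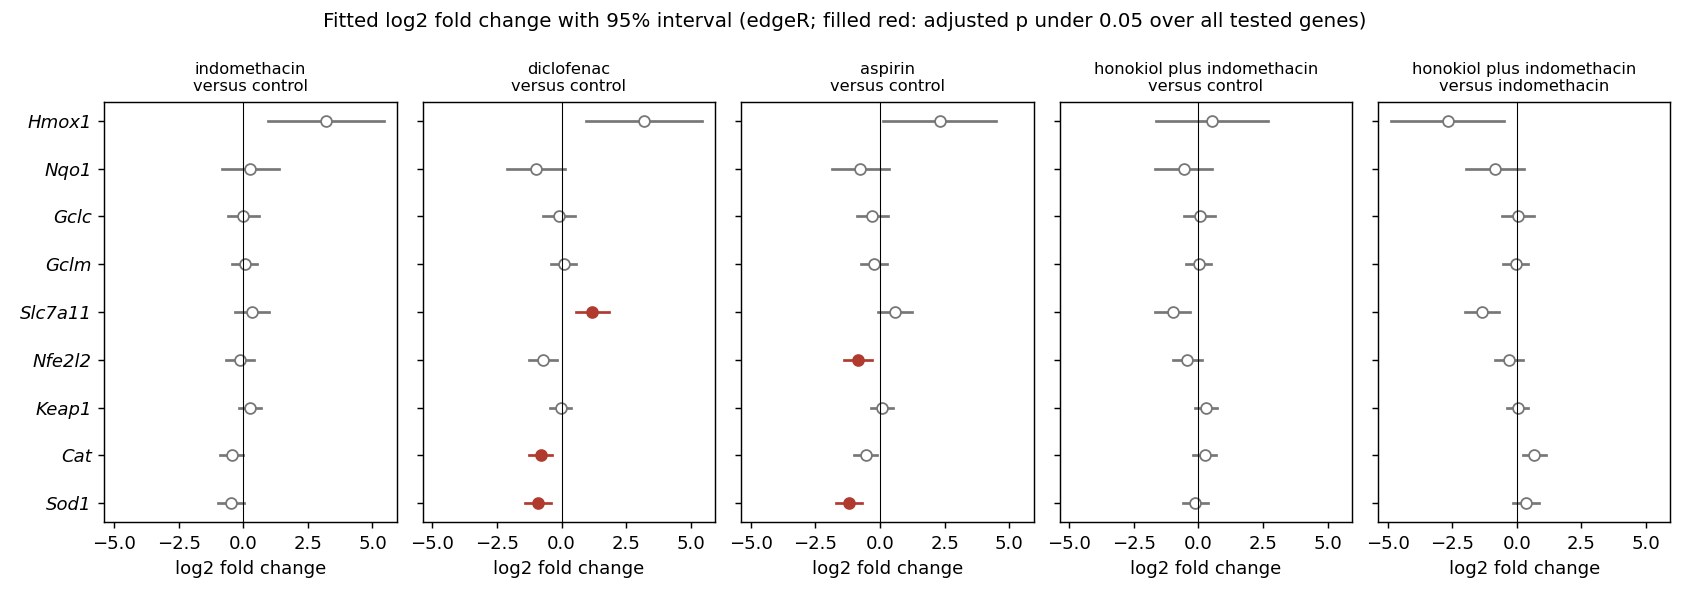
Fitted log2 fold change (x axis) of each of the 9 genes (y axis) in 5 comparisons, with 95% intervals; filled red points had an edgeR adjusted p under 0.05 over all tested genes. Called genes are Slc7a11, Cat and Sod1 with diclofenac and Nfe2l2 and Sod1 with aspirin, and the intervals of Hmox1 are the widest of the 9.

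The regulators were Nfe2l2 (ENSRNOG00000001548, 5 exons on chromosome 3, 62497571 to 62524996) and Keap1 (ENSRNOG00000020878, 6 exons on chromosome 8, 22250518 to 22259779). Nfe2l2 had 127.8 and 103.2 CPM in control, 110.4 and 100.3 with indomethacin, 97.82 and 73.98 with honokiol plus indomethacin, 60.18 and 79.9 with diclofenac and 54.42 and 73.98 with aspirin. The aspirin, diclofenac and honokiol plus indomethacin libraries all lay below both controls and below both indomethacin libraries, whereas indomethacin alone overlapped control. For honokiol plus indomethacin the log2 difference was -0.43 ± 0.25 from control and -0.29 ± 0.25 from indomethacin. Neither passed (SE, edgeR's adjusted p = 0.83 and 0.79). Nfe2l2 fell with aspirin by 0.85 ± 0.25 on the log2 scale, to 0.556 of control (SE, edgeR's adjusted p = 0.04). With diclofenac its log2 fold change was -0.72 ± 0.25 and did not pass (SE, edgeR's adjusted p = 0.094), and with indomethacin it was -0.13 ± 0.25 (SE, edgeR's adjusted p = 0.9) and 0.05 without control replicate 1. Between indomethacin and aspirin, at their different doses, the log2 difference was 0.71 ± 0.25 and also did not pass (SE, edgeR's adjusted p = 0.18). This fall was called in 2 of 10 fits that each left out 1 library, those without aspirin replicate 2 or diclofenac replicate 2. In the other 8 the log2 fold change of Nfe2l2 with aspirin was -0.96 to -0.64 (edgeR's adjusted p = 0.051 to 0.24), and with a term for Y reads it was -0.73 (edgeR's adjusted p = 0.13). With only the aspirin and control libraries in the fit it was -0.82 and not called (edgeR's adjusted p = 0.13).

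Keap1 was low: 9.821 and 11.32 CPM in control, 11.91 and 13.2 with indomethacin, 11.95 and 13.81 with honokiol plus indomethacin, 9.845 and 10.81 with diclofenac and 12.18 and 10.18 with aspirin. All 4 libraries that received indomethacin lay just above both controls and the other drug groups overlapped them, and no comparison called it. The 95% intervals of its log2 fold changes against control lay between -0.45 (diclofenac) and 0.70 (honokiol plus indomethacin). Per kilobase of exon, Nfe2l2 was far above Keap1 in every group, with 50.06 against 3.343 CPM per kilobase in control and 27.83 against 3.535 with aspirin.

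**Figure D2:**
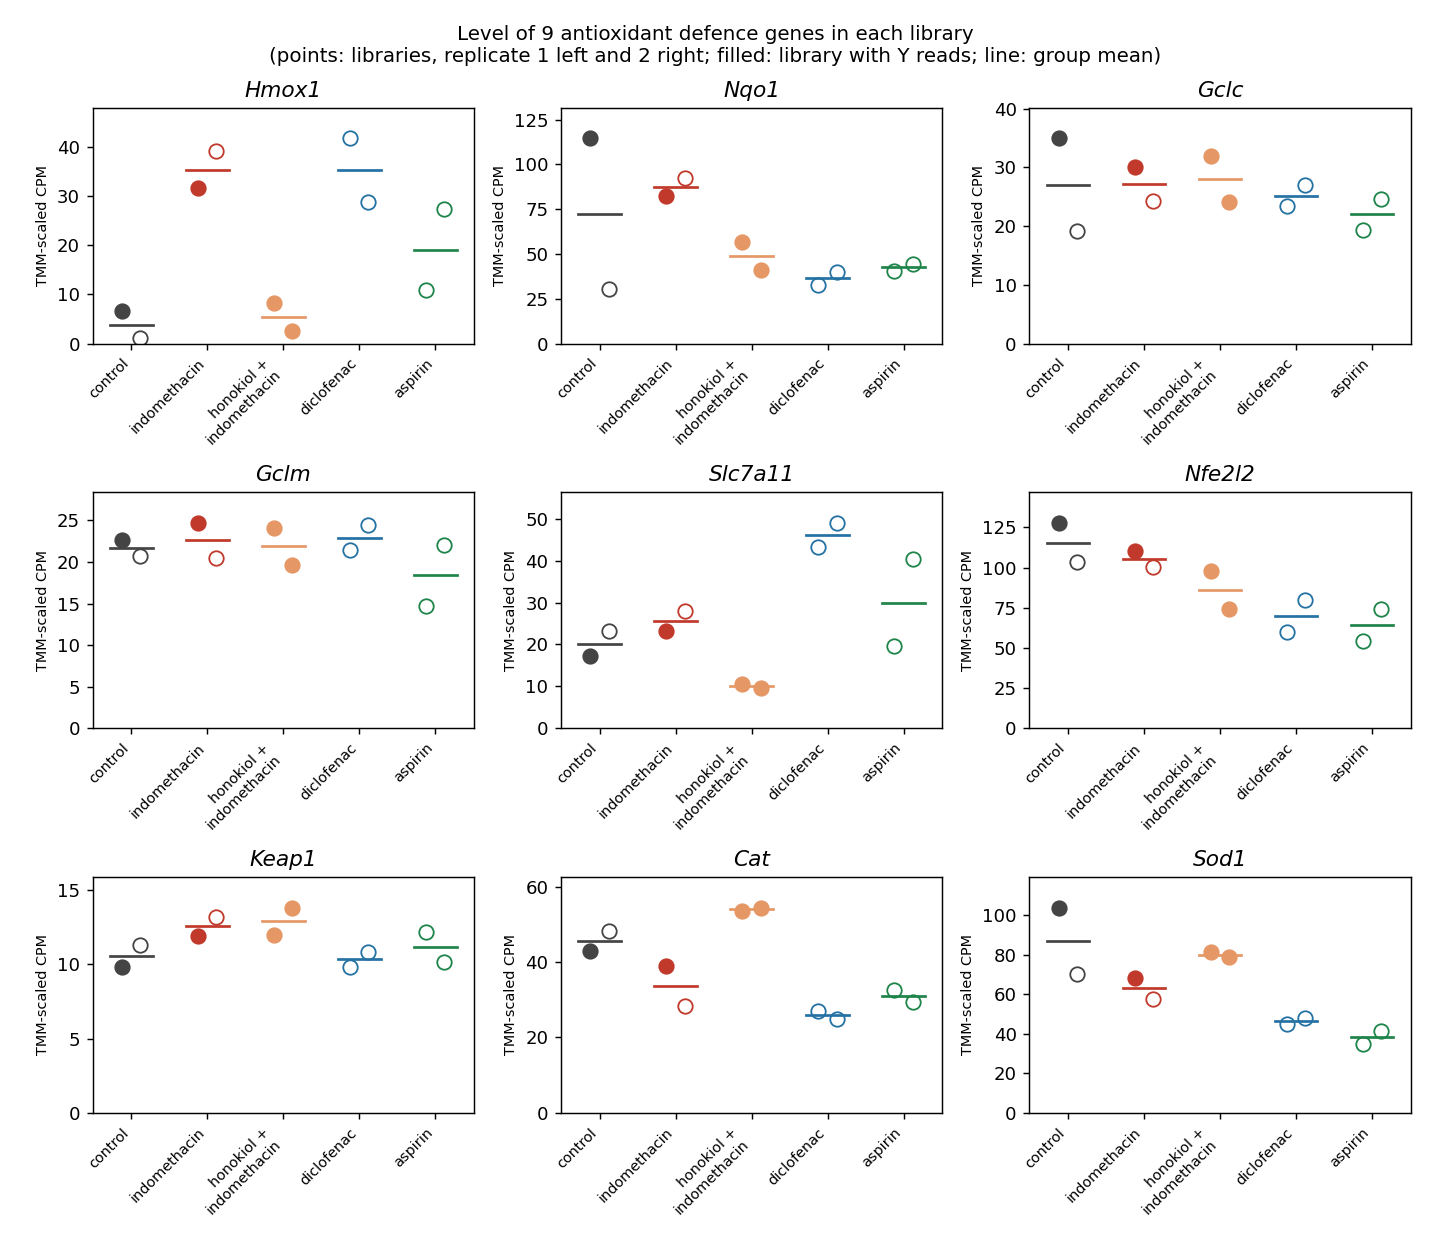
TMM-scaled CPM (y axis, from 0) of each gene in the 10 libraries by group (x axis); points are libraries, filled where the library held Y reads, and lines are group means. By group mean, Sod1 and Cat are lowest with aspirin and diclofenac. Hmox1 is high in the indomethacin and diclofenac libraries and low in the honokiol ones, and Nqo1 differs between the controls, 114.5 against 30.49 CPM.

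Glutathione supply begins with cystine uptake by an antiporter, of which Slc7a11 (ENSRNOG00000010210, 12 exons on chromosome 2, 139453774 to 139528162) encodes the transport subunit, xCT. Slc7a11 had 17.15 and 23.28 CPM in control and 43.15 and 48.97 with diclofenac, with no overlap. It rose 2.28-fold with diclofenac, a log2 fold change of 1.19 ± 0.30 (SE, edgeR's adjusted p = 0.035). The aspirin libraries lay far apart, at 19.61 and 40.35 CPM, and overlapped control (log2 fold change 0.57 ± 0.30 SE, edgeR's adjusted p = 0.18). That value was -0.05 without aspirin replicate 2 and 1.0 without aspirin replicate 1. Indomethacin, at 23.12 and 28.03 CPM, also overlapped control (0.34 ± 0.30 SE, edgeR's adjusted p = 0.77). Both honokiol libraries, at 10.46 and 9.691 CPM, were the lowest of all 10. Against indomethacin the honokiol group had 0.394 of the level, a log2 difference of -1.34 ± 0.30 that edgeR did not call (SE, edgeR's adjusted p = 0.12, unadjusted p = 0.00091), while DESeq2 did (adjusted p = 0.004). Against control it had 0.499 of the level, a log2 difference of -1.0 ± 0.30 (SE, edgeR's adjusted p = 0.83). Between indomethacin and diclofenac the log2 difference was -0.85 ± 0.30 and did not pass (SE, edgeR's adjusted p = 0.31). The difference between honokiol plus indomethacin and indomethacin was called in 2 of 10 fits that left out 1 library. These were the fits without aspirin replicate 1 (log2 difference -1.35) and without aspirin replicate 2 (-1.34). In the other 8 the log2 difference was -1.49 to -1.2 and was not called. With the term for Y reads it was -1.16, also not called (edgeR's adjusted p = 0.3). With only these 2 groups in the fit it was -1.33 ± 0.18 and was called (SE, edgeR's adjusted p = 0.0055). The rise with diclofenac was called in 5 of 10 fits that left out 1 library. It was not called without control replicate 1, indomethacin replicate 2, honokiol replicate 1 or either diclofenac library (log2 fold changes 1.02 to 1.31, edgeR's adjusted p = 0.052 to 0.2), or with the term for Y reads (1.02, 0.12).

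Glutamate-cysteine ligase, the enzyme that limits glutathione synthesis, has a catalytic subunit encoded by Gclc (ENSRNOG00000006302, 16 exons on chromosome 8, 85059051 to 85097468) and a modifier subunit encoded by Gclm (ENSRNOG00000013409, 7 exons on chromosome 2, 225827504 to 225847874). Gclc had 34.96 and 19.24 CPM in control, and the other 8 libraries lay between 19.35 and 31.89 CPM, inside the range the controls spanned. Gclm had 22.58 and 20.77 CPM in control, 24.68 and 20.47 with indomethacin, 24.03 and 19.68 with honokiol plus indomethacin, 21.39 and 24.47 with diclofenac and 14.75 and 22.06 with aspirin. Every group overlapped the controls for both subunits, and neither was called in any of the 8 comparisons. For Gclm the 95% intervals of the log2 fold changes against control lay between -0.73 (aspirin) and 0.57 (diclofenac), and for Gclc between -0.91 (aspirin) and 0.66 (honokiol plus indomethacin). The ratio of Gclc to Gclm per kilobase was 0.756 and 0.452 in the controls and 0.534 to 0.648 in the other 8 libraries.

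Hmox1 (ENSRNOG00000014117, 5 exons on chromosome 19, 14508616 to 14515456) encodes the inducible haem oxygenase, which turns haem into biliverdin, carbon monoxide and iron. Its libraries ran from 1.169 to 41.69 CPM, and the ratio of the highest to the lowest was the largest of the 9 genes. Control libraries had 6.537 and 1.169 CPM, from 207 and 35 counts. Levels were 31.54 and 39.02 CPM with indomethacin, 41.69 and 28.76 with diclofenac, and 10.85 and 27.38 with aspirin. All 6 libraries with a drug alone lay above both controls. Its log2 fold change was 3.19 ± 0.93 for indomethacin, the same for diclofenac and 2.31 ± 0.90 for aspirin, which is 9.12, 9.1 and 4.96 times the control level. None passed the test (SE, edgeR's adjusted p = 0.28, 0.089 and 0.12, unadjusted p = 0.013, 0.013 and 0.041), and the 95% intervals were 0.95 to 5.43, 0.95 to 5.42 and 0.13 to 4.49. DESeq2 called Hmox1 with indomethacin (adjusted p = 0.034) and diclofenac (0.011) but not with aspirin (0.059). Honokiol plus indomethacin had 8.322 and 2.657 CPM, 1 library above and 1 within the range of the controls. Both honokiol libraries were below both indomethacin libraries, a log2 difference of -2.68 ± 0.90 or 0.156 of the level, which did not pass (SE, edgeR's adjusted p = 0.44, unadjusted p = 0.024). That difference was -3.73 without honokiol replicate 1 and -2.09 without honokiol replicate 2. Against control the honokiol group had a log2 difference of 0.51 ± 0.90 (SE, edgeR's adjusted p = 0.91). Its direction turned when control replicate 2 (-0.24) or honokiol replicate 1 (-0.54) was left out, while leaving out control replicate 1 gave 2.25. Between the drugs the 95% intervals of the Hmox1 difference were wide, -2.0 to 2.01 for indomethacin against diclofenac and -1.15 to 2.91 for each of these against aspirin.

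The size of the Hmox1 difference depended on which control was kept. Without control replicate 1 the log2 fold change was 4.93 for indomethacin, 4.94 for diclofenac and 4.07 for aspirin, and without control replicate 2 they were 2.45, 2.46 and 1.59, and none of these 6 values passed the test in edgeR. With a term for Y reads they were 3.51, 3.84 and 2.96, also not called. The 2 controls differed 5.59-fold in Hmox1, a spread that only 2.25% of tested genes reached or exceeded in these libraries. The honokiol libraries differed 3.13-fold (3.16% of tested genes) and the aspirin libraries had a ratio of 0.396 (5.8%), so the spread of Hmox1 was wide in 3 of the 5 groups.

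Nqo1 (ENSRNOG00000012772, 6 exons on chromosome 19, 38422164 to 38437180) encodes a quinone reductase and is a common readout of NRF2 activity. It had 114.5 and 30.49 CPM in control, a 3.76-fold spread that 3.73% of tested genes reached. Levels were 82.35 and 92.55 CPM with indomethacin, 56.6 and 40.9 with honokiol plus indomethacin, 32.87 and 40.12 with diclofenac and 40.44 and 44.61 with aspirin. The controls thus spanned all 8 other libraries, and no comparison with them called Nqo1. Log2 fold changes were 0.27 ± 0.48 with indomethacin, -0.99 ± 0.49 with diclofenac, -0.77 ± 0.49 with aspirin and -0.57 ± 0.49 with honokiol plus indomethacin (SE, edgeR's adjusted p = 0.9, 0.23, 0.28 and 0.83). Their direction depended on which control was kept: with diclofenac the value was -1.62 without control replicate 2 and 0.29 without control replicate 1, and with aspirin it was -1.40 and 0.52. With indomethacin it was -0.38 and 1.54 and with honokiol plus indomethacin -1.23 and 0.69 in the same order. Without control replicate 2, Nqo1 was called lower with diclofenac (edgeR's adjusted p = 0.011) and with aspirin (0.016). With the controls left aside, both indomethacin libraries lay above all diclofenac, aspirin and honokiol libraries. The log2 difference between indomethacin and diclofenac was 1.26 ± 0.49, or 2.4-fold, and did not pass (SE, edgeR's adjusted p = 0.38). That between honokiol plus indomethacin and indomethacin was -0.84 ± 0.49 (SE, edgeR's adjusted p = 0.66). Both SEs came from the fit of all 10 libraries, so the spread of the controls entered them. With only the 2 groups in the fit, the honokiol difference was -0.83 ± 0.2 and was not called (SE, edgeR's adjusted p = 0.08). The Nqo1 difference between indomethacin and diclofenac was called under 2 of 20 other settings. Gclc was also higher in control replicate 1 (1.82-fold, 17.4% of tested genes), whereas Gclm was close in both controls (1.09-fold, 83.1%). Control replicate 1 held Y reads and control replicate 2 did not. With a term for Y reads the Nqo1 log2 fold changes were 0.56 with indomethacin, -0.36 with diclofenac, -0.14 with aspirin and -0.80 with honokiol plus indomethacin, and none was called by edgeR.

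Superoxide is turned into hydrogen peroxide by superoxide dismutases, of which Sod1 (ENSRNOG00000002115, 5 exons on chromosome 11, 30363280 to 30368862) encodes the cytosolic copper and zinc enzyme. Sod1 had 104 and 70.54 CPM in control, 34.88 and 41.61 with aspirin and 45.28 and 48.09 with diclofenac. Each of these 4 drug libraries lay below both controls, and also below both indomethacin libraries (68.58 and 57.95 CPM). Sod1 fell with aspirin by 1.19 ± 0.23 on the log2 scale, to 0.438 of control (SE, edgeR's adjusted p = 0.01). It fell with diclofenac by 0.90 ± 0.23, to 0.535 of control (SE, edgeR's adjusted p = 0.035). With indomethacin both libraries lay below both controls, but the log2 fold change, -0.46 ± 0.23, did not pass (SE, edgeR's adjusted p = 0.54). Between indomethacin and aspirin, at their different doses, the log2 difference was 0.73 ± 0.23 and did not pass (SE, edgeR's adjusted p = 0.16), so that the drugs were not shown to differ. Honokiol plus indomethacin had 81.63 and 78.8 CPM, inside the range of the controls and above both indomethacin libraries (log2 difference from indomethacin 0.34 ± 0.23 SE, edgeR's adjusted p = 0.7).

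Among the libraries without Y reads, the lone control had 70.54 CPM of Sod1 and the aspirin and diclofenac libraries 34.88 to 48.09. With a term for Y reads Sod1 was still called with aspirin (log2 fold change -0.96, edgeR's adjusted p = 0.039) and not with diclofenac (-0.68, 0.13). The aspirin call was made in 8 of 10 fits that left out 1 library and was lost without control replicate 1 (-0.85, edgeR's adjusted p = 0.066) and without aspirin replicate 1 (-1.07, 0.074). The diclofenac call was made in 3 of the 10, those without control replicate 2 or either aspirin library. In the other 7 the log2 fold change was -0.95 to -0.56 (edgeR's adjusted p = 0.053 to 0.23), and with only the diclofenac and control libraries it was -0.86 (0.11). Mitochondrial features held less of the aspirin and diclofenac libraries than of the controls. With these and the short single-exon features removed before scaling, both calls of Sod1 were kept. That refit bears on the scaling only, and a change in the make-up of cells was not tested.

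Cat (ENSRNOG00000008364, 13 exons on chromosome 3, 93379874 to 93412058) encodes catalase, the peroxisomal enzyme that breaks down hydrogen peroxide. Its control libraries were close, at 43.04 and 48.33 CPM. All 6 libraries with a drug alone were lower: 38.96 and 28.38 CPM with indomethacin, 32.49 and 29.37 with aspirin and 27.13 and 24.88 with diclofenac. Both honokiol libraries, at 53.62 and 54.44 CPM, were above both controls. Cat fell with diclofenac by 0.81 ± 0.20 on the log2 scale, to 0.569 of control (SE, edgeR's adjusted p = 0.034). With aspirin the log2 fold change was -0.56 ± 0.20 and with indomethacin it was -0.44 ± 0.20, and neither passed (SE, edgeR's adjusted p = 0.07 and 0.51). Honokiol plus indomethacin had 1.6 times the indomethacin level, a log2 difference of 0.68 ± 0.20 that did not pass (SE, edgeR's adjusted p = 0.26, unadjusted p = 0.0057), and its log2 difference from control was 0.24 ± 0.20 (SE, edgeR's adjusted p = 0.83). The call with diclofenac was made in 4 of 10 fits that left out 1 library, those without an indomethacin or aspirin library. It was lost when any single control, honokiol or diclofenac library was left out (log2 fold changes -0.86 to -0.70, edgeR's adjusted p = 0.059 to 0.16), with the term for Y reads (-0.75, 0.1) and with only the diclofenac and control libraries in the fit (-0.78, 0.094).

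**Figure D3:**
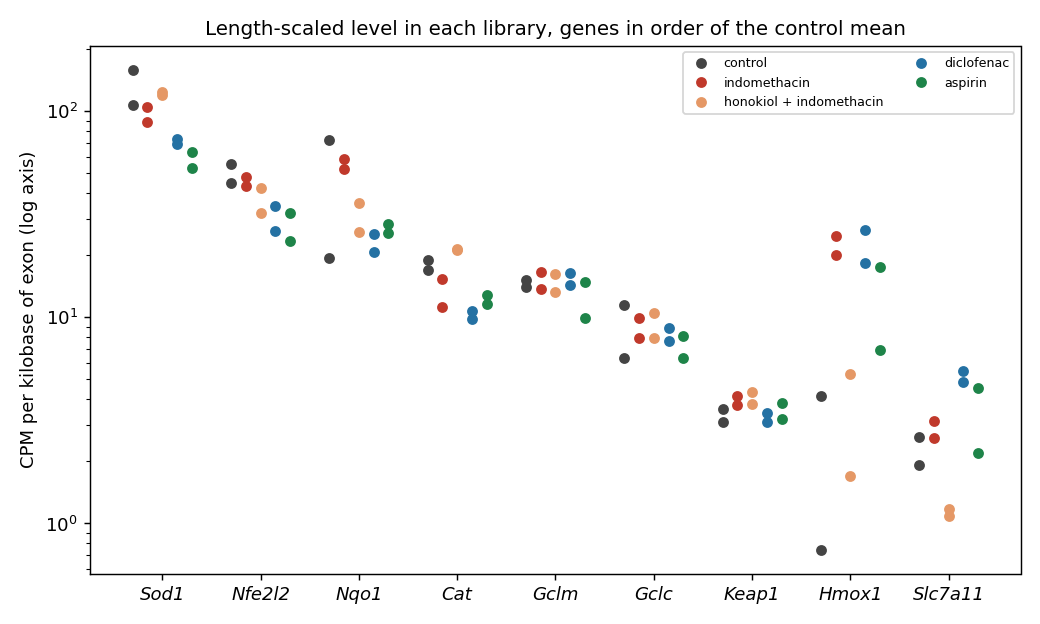
CPM per kilobase of listed exon (y axis, log scale) in each library, with genes (x axis) in order of their control mean and groups by colour. Sod1 is highest in every group on this scale, at 133 in control and 58.3 with aspirin as means, and Hmox1 moves from the eighth place in control to the fourth with indomethacin and diclofenac.

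Per kilobase of exon the order of levels in control was Sod1 (133 ± 36.1 CPM per kilobase), Nfe2l2 (50.06 ± 7.56), Nqo1 (45.92 ± 37.6), Cat (17.99 ± 1.47), Gclm (14.59 ± 0.859), Gclc (8.899 ± 3.65), Keap1 (3.343 ± 0.336), Hmox1 (2.46 ± 2.42) and Slc7a11 (2.273 ± 0.487; SD, n = 2 each). Nqo1 did not differ from its neighbours Nfe2l2 and Cat beyond its own spread, nor did Keap1 from Hmox1 or Hmox1 from Slc7a11. Sod1 stayed in the top place in all 5 groups. Hmox1 reached 22.53 ± 3.38 CPM per kilobase with indomethacin and 22.49 ± 5.84 with diclofenac, above Cat, Gclm and Gclc there, and stood at 3.505 ± 2.56 with honokiol plus indomethacin (SD, n = 2 each). By its mean Slc7a11 stood last in control, indomethacin, honokiol plus indomethacin and aspirin, and next to last with diclofenac, above Keap1. With aspirin this place was within the spread, since Slc7a11 had 2.205 and 4.537 CPM per kilobase and Keap1 3.852 and 3.218.

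The drugs were given at different doses, and 0 of the 9 genes were called between any pair of them by edgeR, or by DESeq2. Between indomethacin and diclofenac 3 of the 9 had an unadjusted p under 0.05 (Nqo1, Slc7a11 and Nfe2l2), and edgeR called 0.0184% of all tested genes. Between indomethacin and aspirin there were 2 (Nfe2l2 and Sod1), also with 0.0184% of all tested genes called. Between diclofenac and aspirin there were 0, with 0% of all tested genes called. For Sod1 the 95% interval of the diclofenac minus aspirin log2 difference was -0.21 to 0.78, and for Slc7a11 it was -0.03 to 1.26.

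**Figure D4:**
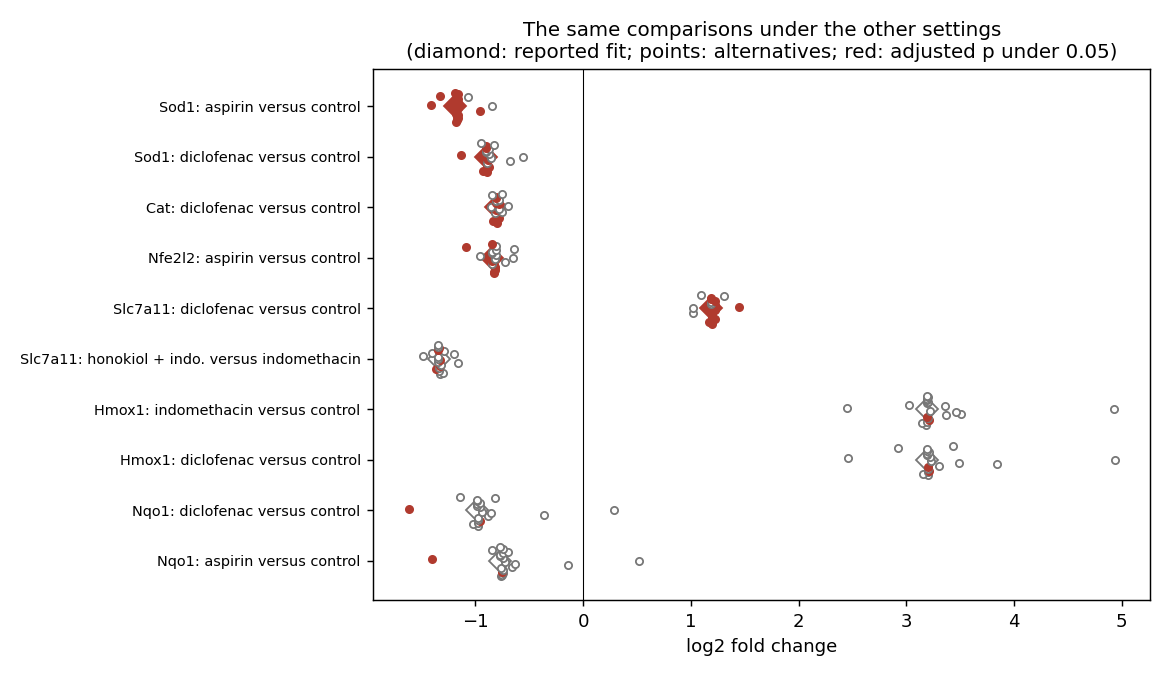
Log2 fold change (x axis) of 10 gene comparisons (y axis) in the reported fit (diamonds) and under 20 other settings (points), red where the adjusted p was under 0.05. Sod1, Cat and Nfe2l2 stay below 0 and Slc7a11 with diclofenac stays above 0 at every setting shown, while Nqo1 crosses 0.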

How the data were processed

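RNA of 10 gastric mucosa libraries was measured by stranded total RNA sequencing after depletion of ribosomal RNA, per the labels' protocols. The authors deposited raw counts per gene, whole numbers in the column layout of featureCounts per the file headers. Tools named in the submitters' processing notes are HISAT2 2.1.0, featureCounts and SAMtools 1.19, with cutadapt 1.16 and FastQC 0.11.7. Genome build, strand setting and the handling of multi-mapped reads: not given in the sources used here. No other listed feature shares exons with any of the 9 genes (0 overlaps on either strand). Reads shared with copies elsewhere could not be checked.

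Groups came from the sample titles. One edgeR 4.0.16 fit (R 4.3.3) held all 10 libraries, with TMM factors, a filter at a minimum count of 10 and total of 15, robust moderation and no term besides group, which left 5 residual degrees of freedom. Each SE is the size of the log2 fold change over the square root of F, and 95% intervals use the moderated degrees of freedom. DESeq2 1.42.0, other scalings, filters and terms, and fits without each library were alternatives. The script was tested on simulated data with the same spread set for every gene, which does not bear on how far these 9 genes vary. The replicate numbers are not stated to pair libraries. The genes and lists were chosen with earlier results of these data known. Symbols of the 9 genes came with their selection. The files pair identifiers with no names and 0 identifiers matched the reference gene table, so other pathway genes, tissue markers and genes of like pattern, set by symbol, were not analysed here. Every one of the 9 genes is named. Promoters came from RefSeq (GRCr8).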

Additional observations from a re-analysis of the deposited data

How the results depend on the processing

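A set list of 34 log2 fold changes, of Hmox1, Nqo1, Slc7a11, Nfe2l2, Cat and Sod1, was refitted under 20 settings. Gclc, Gclm and Keap1 were not in this list. Of these 680 fits, 609 kept direction and side of the threshold, 38 lost the call, 24 gained one and 9 changed sign. A call could be lost only where the reported fit had made one. With diclofenac it was lost under 6 of 20 settings for Slc7a11, 9 for Cat and 10 for Sod1. With aspirin it was lost under 11 of 20 for Nfe2l2 and 2 for Sod1. The number of genes called among the 9 did not change with RLE or upper-quartile factors, with mitochondrial and short single-exon features removed or with a filter at 1 CPM in 2 libraries. With diclofenac the 3 calls became 5 with no low-count filter, 1 with the replicate block, 1 with only the 2 groups compared, 0 with the term for Y reads, and 0 to 3 without single libraries. The replicate block lost Cat (adjusted p = 0.052) and Sod1 (0.058) there, and Nfe2l2 with aspirin (0.062), all by edgeR. With aspirin the 2 calls became 4, 1, 1 and 1 in the same order and 0 to 2 without single libraries. With no low-count filter the other counts of 0 became 1 for indomethacin, 1 for honokiol plus indomethacin against control, 3 for the same against indomethacin, and 2 for indomethacin against diclofenac and 2 against aspirin. DESeq2 gave 1 for indomethacin and 1 for honokiol plus indomethacin against indomethacin. Only the 2 groups compared gave 1 for the latter (Slc7a11) and 1 for indomethacin against diclofenac (Nqo1). Honokiol plus indomethacin against indomethacin gave 0 to 1 without single libraries. Log2 fold changes that changed sign did so only when a library was left out. They ran from -0.38 to 1.54 (indomethacin), -1.62 to 0.29 (diclofenac), -1.40 to 0.52 (aspirin) and -1.23 to 0.69 (honokiol plus indomethacin) for Nqo1 against control. They ran from -0.54 to 2.25 for Hmox1 and -0.37 to 0.20 for Sod1 with honokiol plus indomethacin, -0.27 to 0.05 for Nfe2l2 with indomethacin and -0.05 to 1.0 for Slc7a11 with aspirin. The replicate block takes the number in the labels, which nothing says pairs libraries, and same-numbered libraries deviated together at r of -0.17 to 0.30. Swapping the numbers of aspirin and diclofenac in the block, chosen after seeing the data, gave 2 calls between indomethacin and aspirin, where there had been 0, 4 with diclofenac and 3 with aspirin. Over all tested genes, the 127 called with indomethacin were 834 with no low-count filter, 381 by DESeq2, 262 with only the 2 groups and 1 to 200 without single libraries. The 1286 with diclofenac were 2650, 1830, 527 and 319 to 1434 in the same order, and 383 with the term for Y reads. The 2903 with aspirin were 4198, 3246, 1759 and 462 to 3606, and 683 with that term. The 56 between the honokiol group and indomethacin were 699, 250, 250 and 0 to 118, and 35 with that term. The 3 between indomethacin and diclofenac were 872, 165, 60 and 0 to 63, and the 3 between indomethacin and aspirin were 1414, 469, 57 and 2 to 570. The 0 of honokiol plus indomethacin against control were 153, 17, 3 and 0 to 1, and the 0 between diclofenac and aspirin were 140, 7, 0 and 0 to 27, with 816 and 852 genes at an unadjusted p under 0.05. Apart from fits with fewer libraries, the cause was not tested. Leaving out a library leaves its group a lone library, which is assumed to vary like the other groups. Hmox1 had the lowest count of the 9 genes, 35 in control replicate 2, against 207 in control replicate 1. How far depth limits its result was not tested.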
